A study of Sus scrofa with 12 samples.

Results

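DNA damage response and repair genes were followed in pig aortic valve interstitial cells (paVICs) as a list of 56 genes chosen by symbol. The count table of 31908 genes held 51 of them under their symbol, and 50 of these passed the filter on low counts together with 13216 genes in all. CHEK1 was the member below the filter, and RAD50, BRCA2, SMC5, XRCC4, and ERCC5 had no entry under their symbol. REV3L was placed on the list because it had been seen to rise in every treatment, so its values are given as a description with no test.

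Cells answer DNA damage with the kinases ATM, ATR, and the DNA-dependent protein kinase, which mark broken or stalled DNA and signal to checkpoint kinases. Breaks are then mended by homologous recombination or end joining, altered bases and bulky adducts are cut out by excision repair, replication errors are removed by mismatch repair, and translesion polymerases copy past lesions that remain. In the aortic valve the interstitial cell is the resident fibroblast-like cell that maintains the leaflet matrix.

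Primary paVICs were treated for 24 h with vehicle, 10 μM lysophosphatidylcholine (LPC, a lipid of oxidized lipoproteins), 60 μM dantrolene (a ryanodine receptor blocker), or LPC + dantrolene, with 0.6% DMSO and 0.1% ethanol in the medium of all 4 groups. Each group had 3 libraries, which came from separate isolations in experiments on different days. Equal replicate numbers were taken to mark a shared isolation, which the study does not state. The design asks what LPC does to these cells, what dantrolene does alone, and whether dantrolene alters the response to LPC. The values are gene counts that the authors had adjusted for the isolation before depositing them, given here as CPM (a gene's counts relative to the library total, corrected by TMM scaling factors), with log2 fold changes ± standard error.

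Total counts were 16489684 to 24105935 per library, and 3 counts, the limit that a count of 0 allows, equal 0.114 to 0.186 CPM (counting error only). All 8 interstitial markers were detected, with a summed level of 78100 to 90900 CPM in the vehicle control, 56700 to 83800 CPM with LPC, 54900 to 72400 CPM with dantrolene, which did not overlap the vehicle control, and 57500 to 104000 CPM with LPC + dantrolene. None of the 8 was downregulated in edgeR. LUM was upregulated by 1.35 with LPC, 1.59 with dantrolene, and 1.35 with LPC + dantrolene on the log2 scale (adjusted p = 0.00351, 0.000608, and 0.0042 in edgeR). POSTN was upregulated by 1.60 with LPC (adjusted p = 0.00188 in edgeR). The 6 endothelial markers summed to 129 to 164 CPM in the vehicle control. They summed to 96.1 to 135 CPM in the LPC libraries, to 111 to 120 CPM in the dantrolene libraries, and to 99.2 to 105 CPM in the LPC + dantrolene libraries, and among them CDH5 was downregulated with dantrolene (−1.20 on the log2 scale, adjusted p = 0.0111 in edgeR). The 6 leukocyte markers summed to 12.6 to 28.8 CPM. PTPRC and CD3E were at 0 in all 12 libraries, CD14 at 10.3 to 24.5 CPM, and CD68 at 0.76 to 3.17 CPM. CSF1R reached at most 1.24 CPM and ITGAM 0.437 CPM. The part of the interstitial and endothelial differences in the results was not tested. Replicate 2 of LPC + dantrolene stood apart from the rest. Its median correlation with its own group was 0.909, against 0.937 to 0.974 for the other libraries, and it had the fewest genes detected (13371). The median member lay 0.0481 log2 units above its vehicle mean there, against 0.651 and 0.548 in replicates 1 and 3. Members called in that group against vehicle, with or without replicate 2, are therefore given in both fits. Most other members are given with all libraries only. In these bulk samples, fewer cells of a type and less RNA per cell cannot be told apart.

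Each treatment raised a set of damage response genes above the vehicle control. With LPC, 15 of 50 members (30%) were upregulated by edgeR's quasi-likelihood test at a Benjamini-Hochberg adjusted p under 0.05 over all genes tested, against 8.54% of all genes. With dantrolene 14 members (28%) were upregulated, against 7.54%, and with LPC + dantrolene 12 members (24%) were upregulated, against 6.23%. These counts include REV3L, and without it they were 14 of 49 (28.6%), 13 (26.5%), and 11 (22.4%). The list was chosen with earlier results of these data known, so its excess over all genes is a description with no test. Among 123 other repair genes tested, the shares upregulated were 8.94%, 8.94%, and 6.5%. Without replicate 2 of LPC + dantrolene the members upregulated, REV3L included, numbered 18, 16, and 18, against 11.9%, 11.2%, and 12.6% of all genes. Without dantrolene replicate 2 the count with dantrolene was 9, against 2.77%. The median log2 fold change of the 50 members was 0.36 with LPC, 0.48 with dantrolene, and 0.35 with LPC + dantrolene, and that of all genes was −0.18, −0.11, and −0.08. Without scaling factors beyond total counts, the medians of all genes were −0.00232, 0.129, and 0.122, and the members upregulated numbered 15, 14, and 13.

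No member was downregulated by LPC (0.144% of all genes were) or by dantrolene (1.26%). At an unadjusted p under 0.05 in edgeR, 0 members were lower with LPC and 1 was lower with dantrolene, and DESeq2 called 0 lower in either. FANCD2 alone was downregulated with LPC + dantrolene, where 0.9% of all genes were. The 3 comparisons share the vehicle libraries, so a low vehicle value raises all of them at once, and each is given with its own values.

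**Figure D1:**
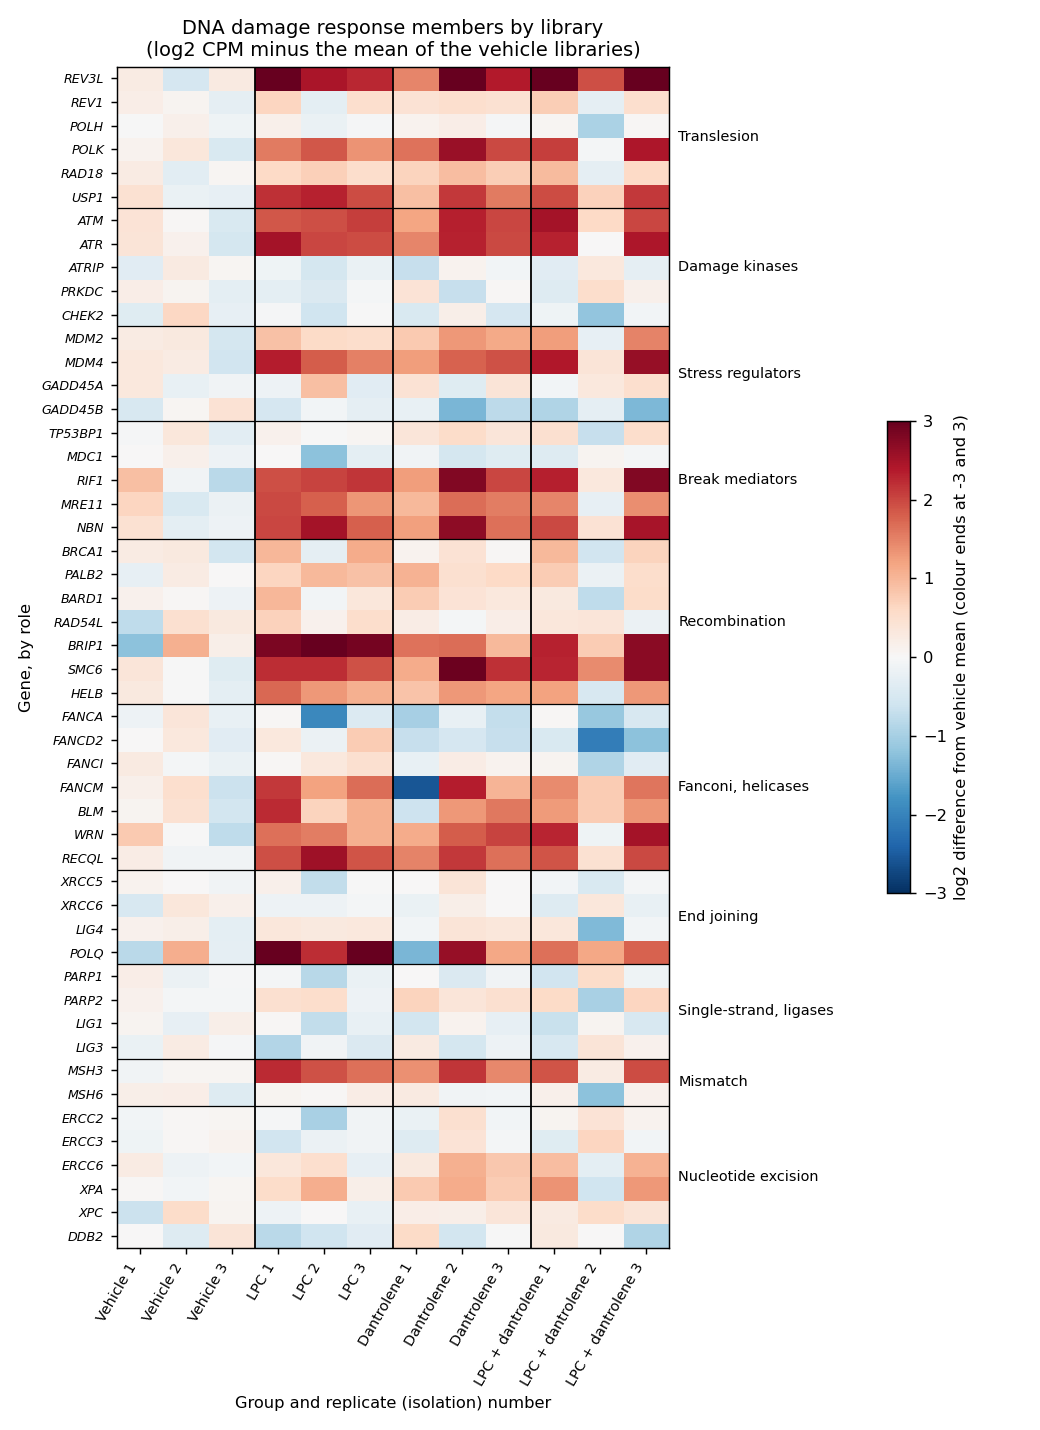
Heat map of the 50 tested members (lines, grouped by role) in the 12 libraries (columns), with color giving log2 CPM minus the vehicle mean. The median over members lay between 0.385 and 0.651 in 8 of the 9 treated libraries and at 0.0481 in LPC + dantrolene replicate 2.

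REV3L, the catalytic subunit of DNA polymerase zeta (chr1:77196592-77400551 on Sscrofa11.1), extends DNA past lesions. It was measured at 2.24, 1.28, and 2.27 CPM in the vehicle control, 16.8, 10.8, and 9.41 CPM with LPC, 5.31, 20.5, and 10.2 CPM with dantrolene, and 22.1, 7.46, and 17.2 CPM with LPC + dantrolene. Every treated library was above every vehicle library, and within dantrolene the values spread from 5.31 to 20.5 CPM. The fitted log2 difference was 2.66 ± 0.42 with LPC, 2.63 ± 0.42 with dantrolene, and 3.01 ± 0.42 with LPC + dantrolene, and 3.40 in the last without replicate 2.

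USP1, the deubiquitinase that strips ubiquitin from PCNA and FANCD2 (chr6:149971471-149985946), was measured at 13.7, 8.76, and 8.43 CPM in the vehicle control, 46.6, 49.9, and 39.2 CPM with LPC, 18.8, 44, and 29.9 CPM with dantrolene, and 39.5, 16.3, and 43.8 CPM with LPC + dantrolene. All 9 treated libraries lay above the highest vehicle value. USP1 was upregulated by 2.13 ± 0.36 with LPC (adjusted p = 9.95e-06), 1.58 ± 0.36 with dantrolene (adjusted p = 0.000955), and 1.69 ± 0.36 with LPC + dantrolene (adjusted p = 0.000464). The log2 difference for the last group was 2.06 without its replicate 2. Leaving out dantrolene replicate 2 ended the call with dantrolene (adjusted p = 0.0569).

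POLK, the translesion polymerase kappa (chr2:84555648-84619490), stood at 7.11, 8.29, and 4.76 CPM in the vehicle control, 19.5, 24.1, and 16.9 CPM with LPC, 20.6, 40.0, and 26.1 CPM with dantrolene, and 27.9, 6.34, and 35.6 CPM with LPC + dantrolene. The LPC and dantrolene libraries did not overlap the vehicle control, whereas LPC + dantrolene replicate 2 lay within it. POLK was upregulated by 1.58 ± 0.38 with LPC (adjusted p = 0.00174), 2.11 ± 0.38 with dantrolene (adjusted p = 5.43e-05), and 1.79 ± 0.38 with LPC + dantrolene (adjusted p = 0.000495). Without replicate 2 of LPC + dantrolene the log2 difference was 2.29, and without LPC replicate 2 the adjusted p with LPC was 0.0725.

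The other translesion members did not pass the test in any treatment. RAD18, the ubiquitin ligase that marks PCNA for bypass, averaged 3.75 ± 0.715 CPM (SD, n = 3) in the vehicle control, 5.72 ± 0.375 CPM with LPC, and 6.44 ± 0.621 CPM with dantrolene, with both treatments above every vehicle library but adjusted p of 0.536 and 0.334. With LPC + dantrolene RAD18 averaged 5.34 ± 2.15 CPM and overlapped the vehicle control through replicate 2 alone (7.31, 3.04, and 5.67 CPM in replicates 1, 2, and 3). REV1, a scaffold of the bypass polymerases, differed by 0.33 ± 0.35 with LPC and 0.45 ± 0.35 with dantrolene on the log2 scale. POLH, which copies past ultraviolet lesions, differed by −0.02 ± 0.34 and 0.08 ± 0.34.

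**Figure D2:**
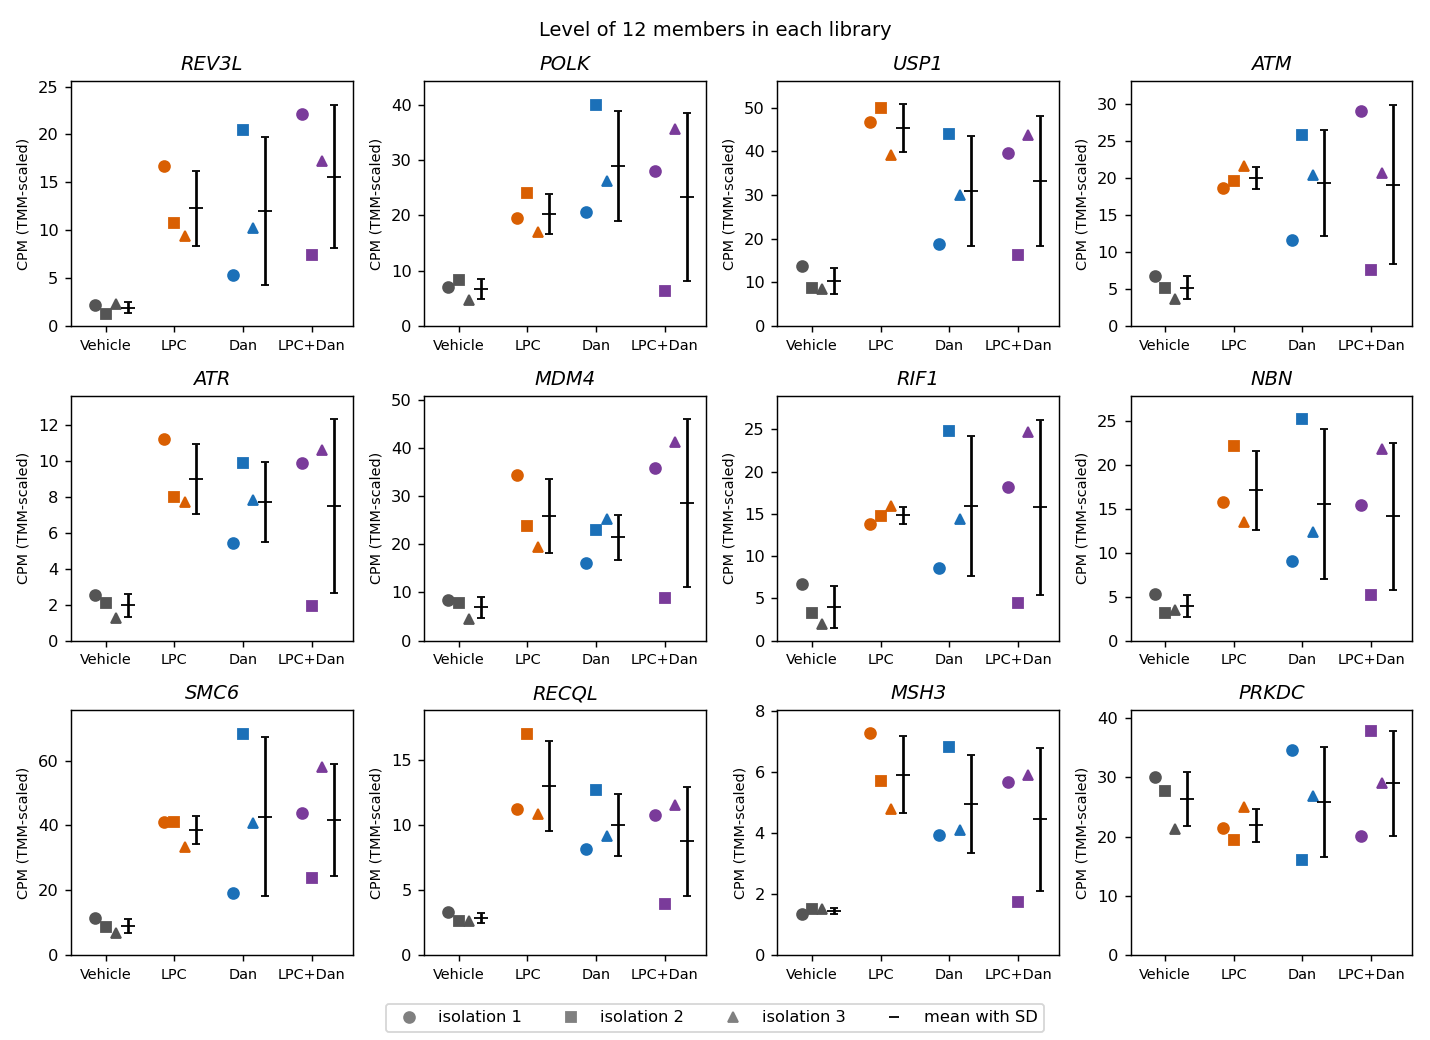
CPM of 12 members in each library, with points for the 3 replicates and a line for the mean of each group with its SD (Dan, dantrolene). REV3L, USP1, ATM, MDM4, SMC6, RECQL, and MSH3 lie above the vehicle libraries in all 9 treated libraries, and PRKDC overlaps in every group.

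Of the 3 apical damage kinases, ATM and ATR rose and PRKDC did not pass the test. ATM, which is activated by double-strand breaks (chr9:36620656-36759555), was measured at 6.72, 5.2, and 3.66 CPM in the vehicle control, 18.7, 19.6, and 21.6 CPM with LPC, 11.7, 25.9, and 20.4 CPM with dantrolene, and 29.1, 7.64, and 20.7 CPM with LPC + dantrolene. All treated libraries exceeded the vehicle control. ATM rose by 1.94 ± 0.38 with LPC (adjusted p = 8.38e-05), 1.89 ± 0.38 with dantrolene (adjusted p = 0.000178), and 1.88 ± 0.38 with LPC + dantrolene (adjusted p = 0.000215), which was 3.84-fold, 3.71-fold, and 3.68-fold. Without replicate 2 of LPC + dantrolene, the log2 difference was 2.31.

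ATR, which answers stalled replication (chr13:83175515-83289986), had 2.53, 2.1, and 1.28 CPM in the vehicle control, 11.2, 7.98, and 7.71 CPM with LPC, 5.42, 9.87, and 7.8 CPM with dantrolene, and 9.89, 1.93, and 10.6 CPM with LPC + dantrolene. Replicate 2 of LPC + dantrolene fell inside the vehicle range, and the other 8 treated libraries lay above it. ATR was upregulated by 2.18 ± 0.44 with LPC (adjusted p = 0.000141), 1.96 ± 0.43 with dantrolene (adjusted p = 0.000767), and 1.92 ± 0.43 with LPC + dantrolene (adjusted p = 0.00107), and by 2.42 for LPC + dantrolene without replicate 2. ATRIP, the partner through which ATR binds single-stranded DNA, had 8.2, 12.5, and 10.8 CPM in the vehicle control, 9.43, 7.17, and 9.0 CPM with LPC, 6.41, 11.1, and 9.71 CPM with dantrolene, and 8.1, 13, and 8.62 CPM with LPC + dantrolene. Its groups overlapped, and its log2 differences were −0.30 ± 0.36 with LPC, −0.21 ± 0.36 with dantrolene, and −0.09 ± 0.36 with LPC + dantrolene (adjusted p = 0.708, 0.837, and 0.975).

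PRKDC, the catalytic subunit of the DNA-dependent protein kinase that drives end joining (chr4:79687375-79850146), was measured at 30.0, 27.8, and 21.3 CPM in the vehicle control, 21.5, 19.4, and 24.9 CPM with LPC, 34.6, 16.1, and 26.8 CPM with dantrolene, and 20.0, 37.9, and 29 CPM with LPC + dantrolene. The groups overlapped throughout. The log2 differences were −0.27 with LPC (95% interval −0.93 to 0.40) and −0.03 with dantrolene (−0.70 to 0.64). For LPC + dantrolene the value was 0.13 (−0.53 to 0.80), so increases as large as those fitted for ATM and ATR lay outside the intervals.

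Neither checkpoint kinase downstream of ATM and ATR was found raised. CHEK2, the ATM target (chr14:45699833-45967350), had 3.24, 6.54, and 3.54 CPM in the vehicle control, 4.15, 2.77, and 4.17 CPM with LPC, 3.07, 4.76, and 2.95 CPM with dantrolene, and 3.84, 1.8, and 4.01 CPM with LPC + dantrolene. Its log2 differences were −0.26 ± 0.45 with LPC, −0.30 ± 0.45 with dantrolene, and −0.46 ± 0.45 with LPC + dantrolene (adjusted p = 0.792, 0.815, and 0.829). CHEK1, the ATR target, had no count in 8 of the 12 libraries and at most 0.263 CPM, in LPC + dantrolene replicate 1, so it was close to the limit of 3 counts and a difference was not detectable at this depth.

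MDM4 and MDM2, a related pair of damage response regulators, were each higher in at least 1 treatment. MDM4 (chr9:65175488-65219747), had 8.39, 7.88, and 4.47 CPM in the vehicle control, 34.4, 23.8, and 19.3 CPM with LPC, 16.1, 22.9, and 25.2 CPM with dantrolene, and 35.7, 8.76, and 41.1 CPM with LPC + dantrolene. All 9 treated libraries lay above the vehicle control, with LPC + dantrolene replicate 2 just above its highest value of 8.39 CPM. MDM4 was upregulated by 1.90 ± 0.38 with LPC (adjusted p = 0.000134), 1.63 ± 0.38 with dantrolene (adjusted p = 0.00134), and 2.04 ± 0.38 with LPC + dantrolene (adjusted p = 7.74e-05), and by 2.52 without that library.

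MDM2, a ubiquitin ligase (chr5:33105717-33137602), had 49.7, 51.3, and 29.3 CPM in the vehicle control, 77.9, 63, and 60.9 CPM with LPC, 72.3, 105, and 92 CPM with dantrolene, and 99.8, 35.7, and 119 CPM with LPC + dantrolene. The dantrolene and LPC libraries lay above the vehicle control, and LPC + dantrolene replicate 2 lay within it. With dantrolene MDM2 rose by 1.04 ± 0.34 (adjusted p = 0.0353), in 3 of 3 isolations. The call was lost with isolation as a block (adjusted p = 0.0858) and without any 1 vehicle library, LPC replicate 1 or 2, or dantrolene replicate 2 or 3, where the adjusted p reached 0.289. With LPC the difference was 0.63 ± 0.34 (adjusted p = 0.37). For LPC + dantrolene it was 0.97 ± 0.34 (adjusted p = 0.0705), or 1.38 (adjusted p = 0.00014) without replicate 2.

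The growth arrest genes did not pass the test. GADD45A, induced after damage, had 152, 104, and 113 CPM in the vehicle control, 109.5, 227, and 96.5 CPM with LPC, 165, 94.8, and 159.7 CPM with dantrolene, and 115, 152, and 171 CPM with LPC + dantrolene. LPC replicate 2 was the highest library and the groups overlapped, with log2 differences of 0.23 ± 0.33 with LPC, 0.18 ± 0.33 with dantrolene, and 0.25 ± 0.33 with LPC + dantrolene. GADD45B, a stress relative, differed by −0.77 ± 0.34 with dantrolene (adjusted p = 0.187) and −0.82 ± 0.34 with LPC + dantrolene (adjusted p = 0.164), and in the latter by −1.08 (adjusted p = 0.00944) without replicate 2.

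Among the genes that detect breaks and steer their repair, RIF1, MRE11, and NBN were upregulated and TP53BP1 and MDC1 were not. NBN, the subunit that joins the MRE11 nuclease complex to ATM (chr4:46787664-46854331), had 5.34, 3.1, and 3.43 CPM in the vehicle control, 15.7, 22.1, and 13.5 CPM with LPC, 9.09, 25.2, and 12.3 CPM with dantrolene, and 15.5, 5.22, and 21.8 CPM with LPC + dantrolene. LPC + dantrolene replicate 2 lay just under the highest vehicle value, and the other treated libraries lay above it. NBN rose by 2.11 ± 0.40 with LPC (adjusted p = 4.88e-05), 1.97 ± 0.39 with dantrolene (adjusted p = 0.000196), and 1.84 ± 0.39 with LPC + dantrolene (adjusted p = 0.000537), and by 2.28 for LPC + dantrolene without replicate 2.

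MRE11, the nuclease of that complex (chr9:26572352-26634596), had 5.01, 2.28, and 2.79 CPM in the vehicle control, 12.8, 11.2, and 8.07 CPM with LPC, 6.3, 10.3, and 9.33 CPM with dantrolene, and 9.0, 2.67, and 8.57 CPM with LPC + dantrolene. The LPC and dantrolene libraries were above the vehicle control. MRE11 was upregulated by 1.66 ± 0.40 with LPC (adjusted p = 0.00203) and 1.36 ± 0.40 with dantrolene (adjusted p = 0.0173). For LPC + dantrolene the difference was 1.00 ± 0.40 (adjusted p = 0.144), or 1.43 (adjusted p = 0.00183) without replicate 2. The LPC call was lost without vehicle replicate 2 (adjusted p = 0.0526), and the dantrolene call without vehicle replicate 2 or 3, LPC replicate 2, or dantrolene replicate 2 or 3 (adjusted p up to 0.171).

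RIF1, which acts with TP53BP1 to shield broken ends from resection (chr15:769518-832036), had 6.72, 3.27, and 1.98 CPM in the vehicle control, 13.8, 14.8, and 15.9 CPM with LPC, 8.6, 24.8, and 14.3 CPM with dantrolene, and 18.2, 4.41, and 24.7 CPM with LPC + dantrolene. The vehicle values themselves spread from 1.98 to 6.72 CPM, and LPC + dantrolene replicate 2 fell among them. RIF1 rose by 1.88 ± 0.41 with LPC (adjusted p = 0.000505), 1.99 ± 0.41 with dantrolene (adjusted p = 0.000313), and 1.97 ± 0.41 with LPC + dantrolene (adjusted p = 0.000378), and by 2.46 in the last without replicate 2.

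TP53BP1 averaged 26.1 ± 5.92 CPM (SD, n = 3) in the vehicle control, 26.7 ± 1.47 CPM with LPC, 34.5 ± 2.66 CPM with dantrolene, and 29.6 ± 12 CPM with LPC + dantrolene, with adjusted p of 0.967, 0.654, and 0.941. In LPC + dantrolene its replicates 1, 2, and 3 were at 35.8, 15.8, and 37.3 CPM, so that mean depends on replicate 2. MDC1, the adaptor that binds phosphorylated histone at breaks, differed by −0.42 ± 0.33 with LPC, −0.33 ± 0.33 with dantrolene, and −0.12 ± 0.33 with LPC + dantrolene on the log2 scale, none past the threshold. The 95% interval for TP53BP1 with LPC was −0.63 to 0.70, and that for RIF1 was 1.07 to 2.70.

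Of 7 homologous recombination genes tested, SMC6, HELB, and BRIP1 were upregulated with LPC, and SMC6 with each treatment. SMC6, of the SMC5/6 complex that resolves joined chromatids (chr3:120097361-120170974), had 11.3, 8.82, and 6.86 CPM in the vehicle control, 41.1, 41.1, and 33.5 CPM with LPC, 19.1, 68.2, and 40.9 CPM with dantrolene, and 43.7, 23.7, and 57.9 CPM with LPC + dantrolene. Every treated library exceeded the vehicle control, and the dantrolene libraries spread widest, from 19.1 to 68.2 CPM. SMC6 rose by 2.10 ± 0.37 with LPC (adjusted p = 1.59e-05), 2.24 ± 0.37 with dantrolene (adjusted p = 1.14e-05), and 2.21 ± 0.37 with LPC + dantrolene (adjusted p = 1.7e-05), and by 2.54 in the last without replicate 2.

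HELB, a helicase that limits the resection of broken ends (chr5:30645378-30696488), had 4.82, 3.91, and 3.2 CPM in the vehicle control, 13.3, 9.83, and 8.28 CPM with LPC, 7.17, 9.83, and 9.11 CPM with dantrolene, and 9.21, 2.8, and 9.83 CPM with LPC + dantrolene. LPC and dantrolene libraries lay above the vehicle control, and LPC + dantrolene replicate 2 lay below its lowest value. With LPC it rose by 1.39 ± 0.39 (adjusted p = 0.0102), a call lost without vehicle replicate 2 or 3 or LPC replicate 1 or 2 (adjusted p up to 0.116). The differences were 1.13 ± 0.39 with dantrolene (adjusted p = 0.0546) and 0.87 ± 0.39 with LPC + dantrolene (adjusted p = 0.235), the latter 1.31 (adjusted p = 0.00296) without replicate 2.

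BRIP1, the helicase partner of BRCA1 (chr12:36498138-36639847), was close to the detection limit in the vehicle control. It had 0, 0.409, and 0.174 CPM in the vehicle control, 1.64, 1.85, and 1.7 CPM with LPC, 0.657, 0.686, and 0.382 CPM with dantrolene, and 1.1, 0.311, and 1.5 CPM with LPC + dantrolene. The LPC libraries were the 3 highest and lay close together. With LPC the log2 difference was 3.15 ± 0.97 (adjusted p = 0.0218). Its size depends on vehicle values of a few counts, and the call was lost with isolation as a block (adjusted p = 0.065) and without vehicle replicate 1 or 3 or any 1 LPC library (adjusted p up to 0.154). For LPC + dantrolene it was 2.34 ± 0.96 (adjusted p = 0.165), or 2.81 (adjusted p = 0.0268) without replicate 2.

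BRCA1, which directs breaks into recombination (chr12:19788087-19854515), had 1.29, 1.34, and 0.697 CPM in the vehicle control, 2.25, 0.869, and 2.42 CPM with LPC, 1.15, 1.49, and 1.09 CPM with dantrolene, and 2.21, 0.683, and 1.75 CPM with LPC + dantrolene. The groups overlapped the vehicle control, LPC + dantrolene only through its replicate 2. The log2 differences of 0.73 ± 0.67 with LPC, 0.16 ± 0.67 with dantrolene, and 0.48 ± 0.67 with LPC + dantrolene did not pass the test, with intervals as wide as −0.60 to 2.06 with LPC. PALB2, the bridge from BRCA1 to BRCA2, lay above the vehicle control in all LPC libraries, at 8.54 ± 0.973 CPM against 4.78 ± 0.824 CPM (SD, n = 3), with an adjusted p of 0.221, or 0.0414 in the fit without LPC + dantrolene replicate 2. The BRCA1 partner BARD1 and the recombination motor RAD54L had log2 differences between 0.04 and 0.53 over the 3 treatments, and neither passed.

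Of the Fanconi and RecQ helicase genes, RECQL and WRN were higher and FANCD2 was lower. RECQL, a RecQ helicase that restarts replication forks (chr5:51953460-51995619), had 3.29, 2.63, and 2.62 CPM in the vehicle control, 11.2, 17, and 10.8 CPM with LPC, 8.16, 12.7, and 9.11 CPM with dantrolene, and 10.7, 3.91, and 11.5 CPM with LPC + dantrolene. All 9 treated libraries exceeded the vehicle control, and LPC + dantrolene replicate 2 did so by the least. RECQL rose by 2.19 ± 0.39 with LPC (adjusted p = 2.28e-05), 1.81 ± 0.39 with dantrolene (adjusted p = 0.000538), and 1.62 ± 0.39 with LPC + dantrolene (adjusted p = 0.00237), and by 2.02 in the last without replicate 2.

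WRN, the RecQ helicase lost in Werner syndrome (chr15:53966968-54094855), had 2.91, 1.64, and 0.93 CPM in the vehicle control, 5.38, 5.0, and 3.55 CPM with LPC, 3.72, 6.06, and 7.09 CPM with dantrolene, and 8.47, 1.49, and 9.73 CPM with LPC + dantrolene. LPC + dantrolene replicate 2 was the only treated library inside the vehicle range. WRN was upregulated by 1.61 ± 0.47 with dantrolene (adjusted p = 0.0156) and 1.84 ± 0.47 with LPC + dantrolene (adjusted p = 0.00502), or 2.35 without replicate 2. With LPC it was 1.33 ± 0.47 (adjusted p = 0.0622), and it passed in 7 of 20 alternatives, among them the fit without LPC + dantrolene replicate 2 (adjusted p = 0.00609). Without vehicle replicate 2 or 3 both calls were lost, as was the first without LPC replicate 2 or dantrolene replicate 2 or 3 (adjusted p up to 0.122) and the second without LPC + dantrolene replicate 1 or 3 or with only the groups compared (up to 0.091).

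FANCD2, which is loaded onto crosslinked DNA with FANCI (chr13:66241951-66308601), had 9.87, 12.3, and 7.79 CPM in the vehicle control, 12.2, 8.63, and 16.6 CPM with LPC, 6.08, 6.93, and 6.0 CPM with dantrolene, and 7.1, 2.24, and 4.16 CPM with LPC + dantrolene. All LPC + dantrolene and dantrolene libraries were below the vehicle control, and the LPC libraries overlapped it. With LPC + dantrolene it fell by 1.15 ± 0.38 against vehicle (adjusted p = 0.0499), a value at the threshold that was lost in 17 of 20 alternatives, with isolation as a block (adjusted p = 0.0984) and without any 1 library other than LPC + dantrolene replicate 1 (up to 0.3). Without LPC + dantrolene replicate 2 the difference was −0.77 (adjusted p = 0.148). With dantrolene alone it was −0.66 ± 0.38 (adjusted p = 0.42) and with LPC 0.32 ± 0.37 (adjusted p = 0.702).

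BLM, a helicase that dissolves crossed strands, had 1.05, 1.4, and 0.639 CPM in the vehicle control, 5.07, 1.63, and 2.16 CPM with LPC, 0.602, 2.59, and 3.17 CPM with dantrolene, and 2.52, 1.74, and 2.61 CPM with LPC + dantrolene. Its LPC libraries were above the vehicle control, but the difference of 1.51 ± 0.59 did not pass (adjusted p = 0.117), although it did in the fit without LPC + dantrolene replicate 2 (adjusted p = 0.0396) and in that of only the groups compared. FANCM, a fork translocase, was likewise higher in all LPC libraries, by 1.80 ± 0.79 (adjusted p = 0.191, and 0.0416 with only the groups compared), from vehicle values of 0.291 to 0.759 CPM. FANCI and FANCA did not pass either, with log2 differences with LPC of 0.28 ± 0.45 and −0.60 ± 0.52.

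**Figure D3:**
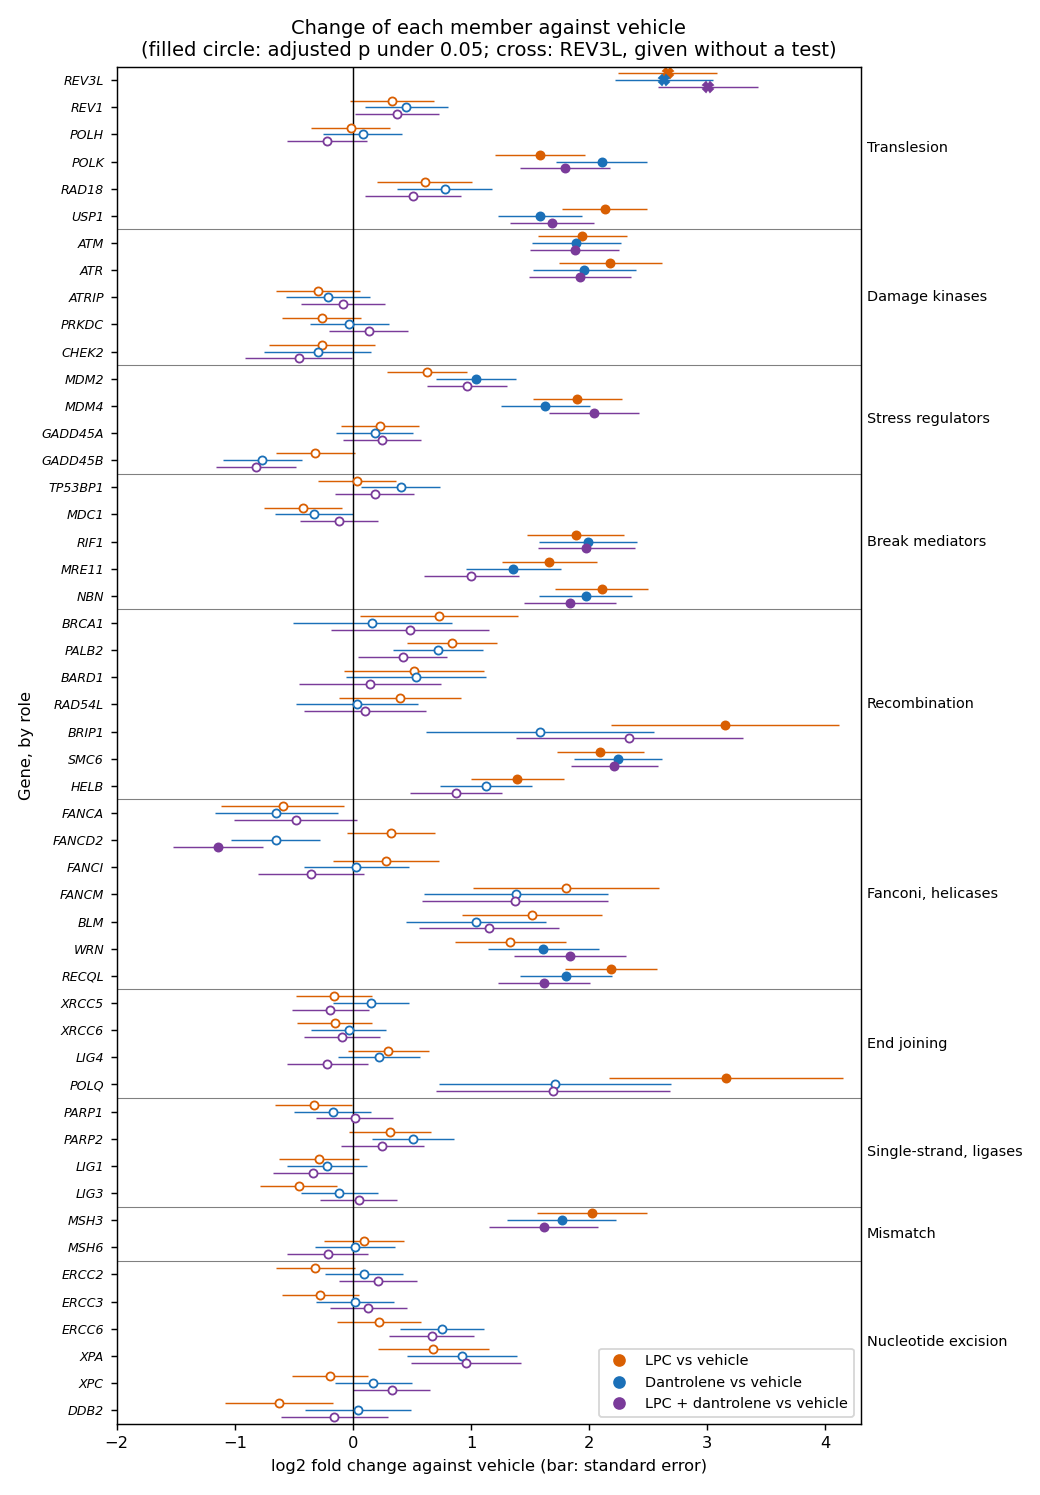
Log2 fold change of each tested member against the vehicle control for LPC, dantrolene, and LPC + dantrolene, with bars giving the standard error and members past the threshold filled, REV3L being drawn as a cross with no test. Called members lie mostly among the translesion, kinase, break, recombination, and helicase genes, and no single-strand, ligase, or nucleotide excision gene is filled, with XPA the highest among them in each comparison. With 4 and 6 such genes tested, 0 filled is near the share of all genes upregulated (6.23% to 8.54%).

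Classical end joining genes did not pass the test, and POLQ was higher with LPC. POLQ, the polymerase of the alternative end joining route (chr13:138962634-139108499), had 0.0477, 0.467, and 0.116 CPM in the vehicle control, 2.25, 1.14, and 2.26 CPM with LPC, 0, 1.52, and 0.491 CPM with dantrolene, and 0.737, 0.497, and 0.802 CPM with LPC + dantrolene. The LPC libraries lay above the vehicle control, and dantrolene replicate 2 was the other library over 1.14 CPM. POLQ rose by 3.16 ± 0.99 with LPC (adjusted p = 0.0265), from a few counts in the vehicle control. The call was lost with isolation as a block (adjusted p = 0.0503) and without vehicle replicate 1 or 3 or any 1 LPC library (adjusted p up to 0.208). With dantrolene it was 1.71 ± 0.98 (adjusted p = 0.419) and with LPC + dantrolene 1.70 ± 0.99 (adjusted p = 0.493).

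The Ku subunits that cap broken ends stayed within the replicate spread. XRCC6 averaged 76.6 ± 20.9 CPM, 68.8 ± 2.78 CPM, 74.7 ± 9.21 CPM, and 71.9 ± 19.8 CPM (SD, n = 3) in the vehicle, LPC, dantrolene, and LPC + dantrolene groups. XRCC5 differed by −0.16 ± 0.32 with LPC, 0.15 ± 0.32 with dantrolene, and −0.19 ± 0.32 with LPC + dantrolene, and the ligase LIG4 by 0.30 ± 0.34 with LPC, 0.22 ± 0.34 with dantrolene, and −0.22 ± 0.35 with LPC + dantrolene, on the log2 scale. For XRCC5 the 95% interval with LPC was −0.80 to 0.48. LIG4 was at 21, 6.52, and 15.6 CPM in LPC + dantrolene replicates 1, 2, and 3, so its value there depends on replicate 2.

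Of the mismatch repair members, MSH3 was upregulated and MSH6 did not pass the test. MSH3, which recognizes insertion and deletion loops (chr2:89255647-89456102), had 1.33, 1.52, and 1.51 CPM in the vehicle control, 7.27, 5.7, and 4.78 CPM with LPC, 3.94, 6.82, and 4.09 CPM with dantrolene, and 5.68, 1.74, and 5.92 CPM with LPC + dantrolene. The vehicle values lay close together, and all treated libraries exceeded them. MSH3 rose by 2.02 ± 0.46 with LPC (adjusted p = 0.000995), 1.77 ± 0.46 with dantrolene (adjusted p = 0.00542), and 1.61 ± 0.46 with LPC + dantrolene (adjusted p = 0.0147). For the last it was 2.05 without replicate 2, and the call was lost with isolation as a block (adjusted p = 0.0618), with only the groups compared, and without vehicle replicate 1 or 2 or LPC + dantrolene replicate 1 or 3 (up to 0.163). The dantrolene call was lost without dantrolene replicate 2 (adjusted p = 0.0988). MSH6, which recognizes mismatched bases, differed by 0.09 ± 0.34 with LPC, 0.02 ± 0.34 with dantrolene, and −0.21 ± 0.34 with LPC + dantrolene, with a 95% interval of −0.58 to 0.77 with LPC. Its LPC + dantrolene replicates 1, 2, and 3 were at 24.3, 9.38, and 24.1 CPM, so that value depends on replicate 2.

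No single-strand break, ligase, or nucleotide excision repair gene passed the test in any treatment. PARP1, which detects strand breaks and builds poly(ADP-ribose) (chr10:14203157-14241164), had 70.6, 54.5, and 59.4 CPM in the vehicle control, 59, 34.3, and 53.2 CPM with LPC, 62, 45.5, and 56.4 CPM with dantrolene, and 40.9, 89.1, and 56.3 CPM with LPC + dantrolene. LPC + dantrolene replicate 2 was the highest library and LPC replicate 2 the lowest. Its log2 differences were −0.33 ± 0.33 with LPC, −0.17 ± 0.33 with dantrolene, and 0.01 ± 0.33 with LPC + dantrolene, and −0.29 for the last without replicate 2. PARP2, LIG1, and LIG3 had log2 differences between −0.46 and 0.51. Among these 4 genes 0 passed at an unadjusted p under 0.05 in edgeR or at an adjusted p under 0.05 in DESeq2.

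DDB2, which recognizes ultraviolet lesions (chr2:15342614-15370623), had 4.1, 3.1, and 5.4 CPM in the vehicle control, 2.31, 2.66, and 3.19 CPM with LPC, 6.19, 2.74, and 4.09 CPM with dantrolene, and 5.05, 4.1, and 2.16 CPM with LPC + dantrolene. The groups overlapped, with log2 differences of −0.63 ± 0.45 with LPC, 0.04 ± 0.45 with dantrolene, and −0.16 ± 0.45 with LPC + dantrolene. XPC, the other damage sensor, and the helicases of transcription factor IIH, ERCC2 and ERCC3, differed with LPC by −0.19 ± 0.32, −0.32 ± 0.33, and −0.27 ± 0.33. XPA, which verifies the lesion, and ERCC6, which acts where transcription stalls, had the largest values of the 6 tested, 0.95 ± 0.47 and 0.67 ± 0.36 with LPC + dantrolene, or 1.42 (adjusted p = 0.00903) and 1.03 (adjusted p = 0.0143) without replicate 2. With dantrolene alone ERCC6 differed by 0.75 ± 0.36 (adjusted p = 0.254, unadjusted p = 0.0381), or 0.81 (adjusted p = 0.049) in the fit without that library, and 0 of the 6 passed in DESeq2.

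Addition of dantrolene to LPC moved few of these genes, as it did few of all genes tested. Against LPC alone, 0 members were higher with LPC + dantrolene (0.219% of all genes were) and 1 was lower (0.288%). DESeq2 called 0 in either direction, and 0 members were higher and 1 was lower at an unadjusted p under 0.05 in edgeR. The lower gene was FANCD2, with a log2 difference of −1.47 ± 0.38 (adjusted p = 0.0493), below LPC in 3 of 3 isolations. This call was lost in 14 of 20 alternatives, including isolation as a block (adjusted p = 0.205) and the fit without LPC + dantrolene replicate 2 (−1.16, adjusted p = 0.118), with an adjusted p up to 0.497. The largest value after it was −1.46 ± 0.89 for POLQ (adjusted p = 0.864). For ATM, the difference was −0.06 with a 95% interval of −0.78 to 0.65, and for SMC6 0.12 with −0.58 to 0.81.

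Addition of LPC to dantrolene moved none past the threshold. In this comparison 0 members were higher (0.0151% of all genes) and 0 lower (0.00757%), edgeR gave 0 in either direction at an unadjusted p under 0.05, and DESeq2 gave 0. The log2 differences of the 50 members lay between −0.49 and 0.76, and 38 of them changed sign under at least 1 alternative. Their median was −0.05 with all libraries and 0.1 without LPC + dantrolene replicate 2. With all libraries USP1 differed by 0.10 (95% interval −0.58 to 0.79), NBN by −0.13 (−0.88 to 0.61), and RECQL by −0.19 (−0.93 to 0.54).

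The effect of LPC in the presence of dantrolene was then set against its effect in the absence of dantrolene, as an interaction term. It was lower for 10 of the 49 members other than REV3L (20.4%), or 11 of 50 with it (22%), against 4.49% of all genes, and higher for 0, against 0.159%, with 0 higher at an unadjusted p under 0.05 in edgeR and 0 higher in DESeq2. RECQL had the largest of these differences. With all libraries, LPC raised RECQL by 2.19 over vehicle and changed it by −0.19 over dantrolene, an interaction of −2.38 ± 0.54 (adjusted p = 0.00312). NBN went from 2.11 to −0.13 (−2.24 ± 0.54, adjusted p = 0.00554), SMC6 from 2.10 to −0.03 (−2.13 ± 0.50, adjusted p = 0.0045), and USP1 from 2.13 to 0.10 (−2.03 ± 0.49, adjusted p = 0.006). ATM, ATR, MRE11, POLK, MSH3, and RIF1 had interactions between −2.22 and −1.89. Dantrolene alone raised these 10 members over vehicle, by 1.36 (MRE11) to 2.24 (SMC6). Low vehicle values raise the effect of each single treatment and lower the interaction, so the term shares the vehicle libraries with those calls.

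MDM4, HELB, POLQ, and PALB2 had negative interactions that did not pass (−1.48, −1.65, −3.17, and −1.14, with adjusted p of 0.0858, 0.064, 0.191, and 0.287). PRKDC, LIG3, MDC1, and PARP1 had positive values of 0.43, 0.63, 0.64, and 0.52, none past the threshold. Without replicate 2 of LPC + dantrolene, 10 of the 50 members, REV3L among them, had a lower effect, against 11 of 50 with all libraries. In that fit RECQL was at −2.10 (adjusted p = 0.00289) and RIF1 at −1.52 (adjusted p = 0.0624). Of all genes 3.76% had a lower effect in that fit. The count was 5 with isolation as a block, REV3L among them (2.1% of all genes), and 3 on total counts alone, without REV3L (1.76%). It was 0 without LPC replicate 2 (0.0293% of all genes) and 0 without dantrolene replicate 2 (0.228%), where log2 values stayed negative for all 11. It was 2 without vehicle replicate 2 (1.6%) and 4 without LPC replicate 1 (1.88%). RECQL averaged 13 ± 3.48 CPM with LPC, 9.97 ± 2.36 CPM with dantrolene, and 8.73 ± 4.19 CPM with LPC + dantrolene, against 2.85 ± 0.386 CPM in the vehicle control (SD, n = 3).

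**Figure D4:**
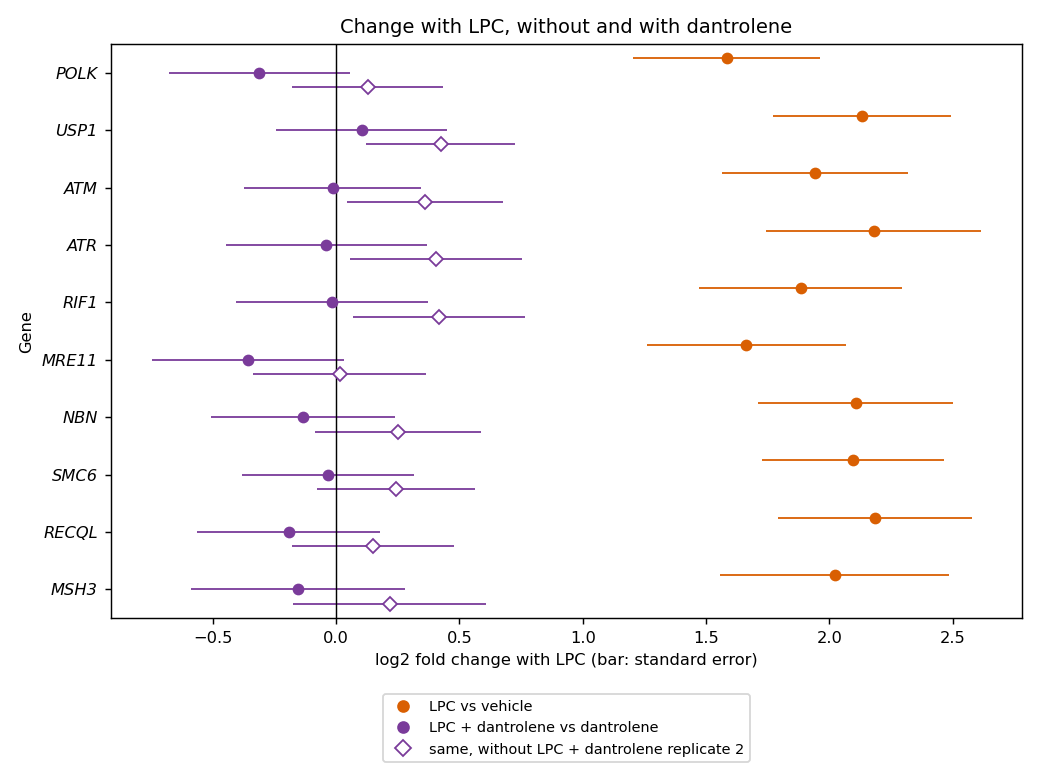
Log2 effect of LPC on 10 members without dantrolene (LPC against vehicle) and with dantrolene (LPC + dantrolene against dantrolene), with bars giving the standard error, the second also drawn without LPC + dantrolene replicate 2. The effects without dantrolene lie between 1.58 and 2.19, and those with dantrolene lie around 0 with all libraries. Over all 50 members the median effect with dantrolene was −0.05, and 0.1 without that replicate.

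The called members tended to be long genes. Genomic span was taken from a RefSeq annotation of Sscrofa11.1, in which all 51 members were found by symbol. With LPC, 3 of 23 members under 50 kb were upregulated (13%), 6 of 17 between 50 and 100 kb (35.3%), and 6 of 10 at 100 kb or more (60%). Member values in this paragraph include REV3L, which spans 204 kb, was listed for its rise, and is counted among these 6 of 10. The shares over all genes with a span were 5.72%, 17.4%, and 16%. The median span was 66.7 kb for members upregulated with LPC and 39.5 kb for the others, against 67.1 and 27.7 kb over all genes. Across the 50 members, Spearman's rho between span and log2 fold change was 0.422 with LPC, 0.399 with dantrolene, and 0.399 with LPC + dantrolene, and across 10313 genes it was 0.278, 0.268, and 0.245. Genes are not independent replicates and share their libraries, so these are descriptions with no test. Among the short members that rose, USP1 spans 14.5 kb, and among the long ones that did not pass, CHEK2 spans 267.5 kb and PRKDC 162.8 kb. The part of span in the result was not tested.

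**Figure D5:**
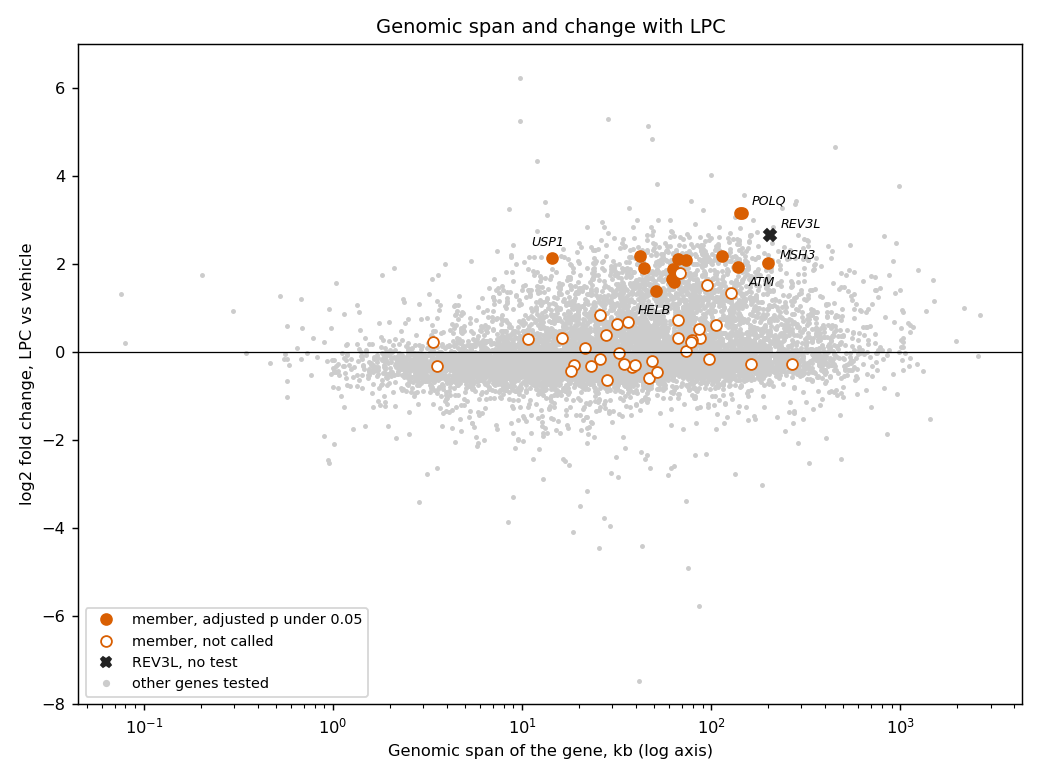
Log2 fold change with LPC against genomic span in kb (log axis) for all genes with a span (grey) and for the 50 members (colored, filled where past the threshold). Members at 100 kb or more lie higher than those under 50 kb, as 6 of 10, REV3L included, and 3 of 23 were upregulated.

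In a second list of 134 repair genes outside the 56, the shares upregulated were 8.94%, 8.94%, and 6.5%, against 8.54%, 7.54%, and 6.23% of all genes. Of its 123 tested genes, 11 were upregulated with LPC, 11 with dantrolene, and 8 with LPC + dantrolene, and 0 were downregulated in edgeR, with 2 at an unadjusted p under 0.05 in each comparison. Its median log2 fold change was −0.07, −0.03, and −0.01. DESeq2 called 1 lower with LPC + dantrolene and 0 with either treatment alone. The upregulated counts were 20, 17, and 21 without replicate 2 of LPC + dantrolene (16.3%, 13.8%, and 17.1%, against 11.9%, 11.2%, and 12.6% of all genes). They were as low as 4 with LPC without LPC replicate 2 (3.23%, against 4.9%), 1 with dantrolene without dantrolene replicate 2 (0.813%, against 2.77%), and 2 with LPC + dantrolene without its replicate 3 (1.61%, against 3.42%). HLTF, a fork remodeler that extends ubiquitin chains on PCNA, rose from 6.47 ± 1.86 CPM in the vehicle control to means of 34.4, 34.9, and 34.8 CPM in the LPC, dantrolene, and LPC + dantrolene groups (log2 2.41 ± 0.38, adjusted p = 3.97e-06 with LPC). PMS1, of the mismatch repair MutL family, rose by 2.06 ± 0.46 with LPC (adjusted p = 0.000657). RBBP8, which starts resection with MRE11, rose by 1.67 ± 0.39 (adjusted p = 0.00118), and TOPBP1, an activator of ATR, by 1.43 ± 0.36 (adjusted p = 0.00344). HLTF, PMS1, RBBP8, and TOPBP1 were not followed singly through the alternatives, so how far their calls hold is not known.

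Of 26 replication and mitosis genes tested, 2 were upregulated with LPC (7.69%, against 8.54% of all genes), namely TOP2A (2.85 ± 0.60, adjusted p = 0.000293) and KIF11 (1.89 ± 0.57, adjusted p = 0.0196). With dantrolene 7 were downregulated (26.9%, against 1.26% of all genes), and with LPC + dantrolene 7 (26.9%, against 0.9%). MCM2, of the replicative helicase, fell by 1.39 ± 0.36 with dantrolene (adjusted p = 0.00444), and CDC20, which starts anaphase, by 1.52 ± 0.36 (adjusted p = 0.00208). The replication and mitosis genes were not followed through the alternatives. FANCD2 was lower than the vehicle control in every library of both dantrolene groups, and the part of these genes in its level was not tested.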

How the data were processed

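RNA was sequenced from paVICs in 12 libraries, 3 for each of vehicle control, LPC, dantrolene, and LPC + dantrolene, with groups taken from the sample labels. The study's methods name STAR for annotation and ComBat for batch adjustment, and the authors deposited whole-number counts per gene, not scaled for library size. The submitters' processing notes name HISAT2 2.0.5, DESeq2 1.32.0, R 4.1.1, and Sscrofa11.1, so which tool made the counts is not settled by these sources. The counter, its strand setting, and the annotation were not given in the sources used here, so reads of overlapping genes cannot be told apart. ComBat moves the isolation means of a gene together and spends degrees of freedom unseen by the later tests, whose adjusted p-values may therefore be too low. Tables of the authors' own comparisons, which hold fold changes and p-values, were not used.

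Members were matched by symbol in the count table. Genes of the other lists were matched by symbol or, where the symbol was missing, by gene identifier. Members found only by identifier (RAD50 and BRCA2) were left out of the member counts, so the lists were not built by the same rule. The tests ran in edgeR 4.0.16 under R 4.3.3, using filterByExpr (13216 genes kept of 19607 with a count), TMM factors, and a quasi-likelihood fit of 12 libraries in 1 model with group as the only term. Every treatment was set against vehicle and LPC + dantrolene against each single treatment, and the interaction was tested. A gene counted as up- or downregulated where its Benjamini-Hochberg adjusted p over all genes tested was under 0.05. Error is the SD of 3 replicates or the standard error of the fit, and intervals are 95%. The fit was tested on simulated counts.

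The members, the other gene lists, and the tests were chosen with earlier results of these data known. Values in every library were printed for members past the threshold in at least 1 comparison and for members with a defining role (ATM, ATR, PRKDC, CHEK1, CHEK2, MDM2, BRCA1, PARP1, GADD45A, DDB2), and called genes of the other lists were named up to 4 per list. Alternatives were DESeq2 1.42.0, a minimum of 10 counts in 6 libraries, no filter, total counts alone, RLE size factors, a block for isolation, only the groups compared, a threshold of 0.1, and the omission of each library. Replicates with the same number were taken as 1 isolation, because each experiment of the study used a separate isolation and had 1 replicate per group. The methods and labels do not state which number belongs to which isolation. Deviations from group means correlated with a median of −0.152 (−0.536 to 0.207) within an isolation and 0.108 between isolations, an outcome that ComBat fixes. Promoter and protein sequences were not analysed here. Some items of the damage response are not reported here.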

Additional observations from a re-analysis of the deposited data

Results flagged for a closer look

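For 10 members the effect of LPC in the presence of dantrolene differed from its effect in the absence of dantrolene by the interaction term of edgeR's quasi-likelihood test. All had a lower effect with dantrolene, as the log2 effect with dantrolene minus that without it was −2.38 for RECQL, −2.24 for NBN, −2.22 for ATR, −2.18 for MSH3, −2.13 for SMC6, −2.03 for USP1, −2.02 for MRE11, −1.95 for ATM, −1.90 for RIF1, and −1.89 for POLK. The adjusted p lay between 0.00312 for RECQL and 0.0309 for RIF1. None of these calls held without LPC replicate 2 or without dantrolene replicate 2, where 0 members passed (0.0293% and 0.228% of all genes had a lower effect). Dantrolene alone raised the same 10 members over vehicle, by 1.36 (MRE11) to 2.24 (SMC6). The vehicle libraries are part of the term, and low vehicle values lower it.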

How the results depend on the processing

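The 69 member differences past the threshold in at least 1 fit were followed through the alternatives, where 1193 values kept their direction and side of the threshold, 138 were no longer past it, 35 newly passed it, and 0 turned direction. Of the 231 past it in no fit, 107 changed sign under at least 1 alternative, all at most 0.385 in size on the log2 scale. With each library left out in turn, members upregulated numbered 11 to 18 with LPC (4.9% to 11.9% of all genes), 9 to 16 with dantrolene (2.77% to 11.2%), and 10 to 18 with LPC + dantrolene (3.42% to 12.6%). Members with a lower LPC effect in the interaction numbered 0 to 13, with 3 on total counts alone and 5 with isolation as a block. These member counts include REV3L in the fits where it passed. The FANCD2 call against vehicle gave 0 members under DESeq2, no filter, RLE size factors, total counts alone, the block, and only the groups compared, and 0 to 1 with a library left out (the 1 without LPC + dantrolene replicate 2 being GADD45B). The call against LPC gave 0 under DESeq2, RLE size factors, total counts alone, the block, and only the groups compared, and 0 to 1 with a library left out. The cause was not tested.

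Other repair genes upregulated numbered 17 with LPC when only the groups compared were fitted, 7 with dantrolene under the block, and with LPC + dantrolene 5 under the block and 3 with only the groups compared. With a library left out they numbered 4 to 20, 1 to 17, and 2 to 21. Those downregulated numbered 0 to 1 with LPC and 0 to 1 with dantrolene when a library was left out, and 1 with LPC + dantrolene in DESeq2. Those with a lower LPC effect in the interaction numbered 3, and 1 under DESeq2, total counts alone, and the block, 5 with RLE size factors and with no filter, 6 with at least 10 counts in 6 libraries, 9 at an adjusted p under 0.1, and 0 to 10 with a library left out.

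The replicate block ended the calls of BRIP1 and POLQ with LPC, MDM2 with dantrolene, MSH3 and FANCD2 with LPC + dantrolene, FANCD2 against LPC, and POLK, ATM, ATR, RIF1, NBN, and MSH3 in the interaction, and changed no other member's call. Only the groups compared gives no interaction. BRIP1, POLQ, and CHEK1 rest on few counts per vehicle library, and with 3 libraries a group the smallest member difference past the threshold was 1.04 on the log2 scale, for MDM2.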

Other observations

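RAD50 and BRCA2 had no entry under their symbol in the count table but were found there by their gene identifier. BRCA2, a homologous recombination gene, was measured at 0.668, 1.34, and 0.523 CPM in the vehicle control, 4.20, 4.18, and 2.47 CPM with LPC, 1.04, 6.36, and 3.88 CPM with dantrolene, and 4.58, 1.18, and 6.47 CPM with LPC + dantrolene. The LPC libraries lay above the vehicle control, while 1 library of each dantrolene group lay within it. BRCA2 was higher by 2.10 ± 0.56 with LPC (adjusted p = 0.00612), 2.16 ± 0.56 with dantrolene (adjusted p = 0.00506), and 2.27 ± 0.56 with LPC + dantrolene (adjusted p = 0.00328) in edgeR's quasi-likelihood test, on the log2 scale. RAD50, the partner of MRE11 and NBN, was higher by 1.04 ± 0.35 with dantrolene (adjusted p = 0.0431). With LPC it differed by 0.96 ± 0.35 (adjusted p = 0.076) and with LPC + dantrolene by 0.79 ± 0.35 (adjusted p = 0.216). BRCA2 and RAD50 were not followed through the alternatives, including the fit without LPC + dantrolene replicate 2, so how far their calls hold is not known.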
